A study of Mus musculus with 5 samples.

Results

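The genes described here build and police the mitotic spindle: 46 genes of the centromere, the outer kinetochore, the spindle checkpoint, spindle assembly, condensin I and cytokinesis. They were chosen by name with earlier results of these data known, so their contrast with all genes is a description only. Each was read from its brightest probe set among those annotated with its symbol alone. That left 45 of the 46 genes, out of 22180 genes measured, because the condensin gene Ncapg had no such probe set and was not analysed here. In Polg mutant erythroid cells 44 of the 45 genes had a lower mean than in wild-type (WT) cells, with a median log2 difference of -0.38, or 76.9% of the WT level. In 41 of them all 3 Polg mutant arrays lay below both WT arrays, which was the case for 9.73% of all genes measured.

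The RNA came from Ter119-selected bone marrow cells of C57BL/6 mice and was hybridised to 1-colour Affymetrix whole-transcript arrays. Ter119 is an antigen of erythroid cells from the erythroblast stage onwards, and leukocytes bearing CD45 had been depleted first on magnetic columns. The 2 WT arrays carried the genotype Polgtm1Lrsn wt/wt and the 3 Polg mutant arrays the genotype Polgtm1Lrsn mt/mt. Polg encodes the mitochondrial DNA polymerase, and homozygous mice, also called mtDNA-mutator mice, lack its proofreading activity and accumulate mutations in mitochondrial DNA. Both genotypes came from the same kind of cross, in which each parent was PolG wt/mt and Atg7 flox/flox, the mother was Epo-cre wt/wt and the father Epo-cre ki/wt. The labels do not say which offspring carried the Cre. The series' design text calls the mice phlebotomized and its title calls the mutants aged, whereas each label gives its treatment as none, and neither ages nor bleeding times were given in the sources used here. The labels do not say that each array is a separate animal, so p-values reflect the scatter of these samples alone, part of which may be technical.

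At mitosis each chromosome is held by a kinetochore, a protein stack laid down on centromeric chromatin that grips spindle microtubules. Kinetochores that lack a proper grip activate the spindle checkpoint, which holds back the anaphase-promoting complex until every chromosome is attached. Erythroblasts divide several times while they accumulate haemoglobin and then leave the cell cycle before they lose their nucleus, so transcripts of mitosis are a normal feature of nucleated erythroid cells.

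Values are log2 expression levels as deposited, and differences are Polg mutant minus WT on that scale with the standard error (SE) from limma. After Benjamini-Hochberg adjustment over all genes, limma called 0 genes at an adjusted p under 0.05, and so 0 members (0.0% of all genes called). The smallest adjusted p of any member was 0.160, for Ttk. At an unadjusted p under 0.05, limma placed 31 of the 45 members lower and 0 higher, where 5.33% of all genes were lower and 4.18% higher at that level. No member had every Polg mutant array above both WT arrays, against 8.36% of all genes. The count of 31 depended on the arrays used. It was 26, 23 and 25 without Polg mutant replicates 1, 2 and 3, where 4.08%, 4.21% and 4.31% of all genes were lower. It fell further without either WT array, most without WT replicate 1. Those fits keep 1 WT array, and the share of all genes that was lower rose in them. Members that were lower on every remaining Polg mutant array numbered 41 to 43 when any 1 array was left out. Leaving out an array cannot lower that count, and the share of all genes rose to between 11.7% and 28.1%. With all 5 arrays kept, it was 38 after renewed quantile normalization and 40 with arrays centred on their medians. The shares of all genes were then 10.5% and 9.07%.

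The members' probe sets had mean signals from 7.41 to 11.80, above the array medians of 5.10 to 5.13. Many genes outside that range are dim and hardly vary, so the 4250 genes within it form a closer background. Of those, 19.2% were lower at an unadjusted p under 0.05, 29.7% had no overlap and lower mutant values, and the median difference was -0.036. For the members the same quantities were 68.9%, 91.1% and -0.38. Over all 22180 genes the median difference was zero. The cumulative curves place the members to the left of both backgrounds over nearly their whole range.

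**Figure D1:**
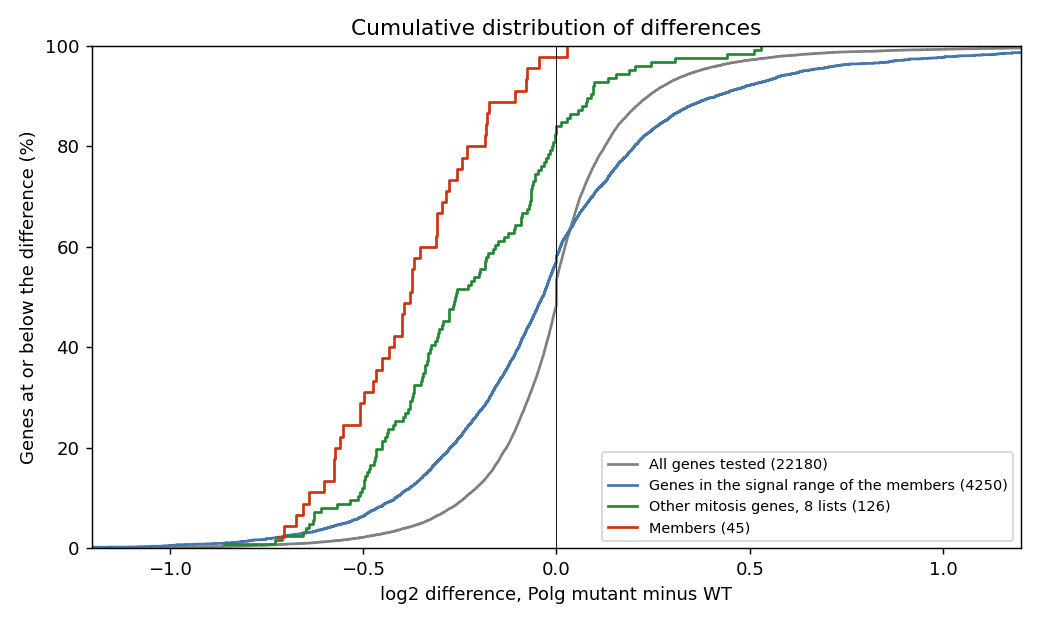
Cumulative share of genes (%, y axis) at or below each log2 difference, Polg mutant minus WT (x axis, shown from -1.2 to 1.2), for all 22180 genes tested, the 4250 genes in the members' signal range, 126 other mitosis genes and the 45 members. The members' curve crosses its midpoint at -0.38, the other mitosis genes at -0.26 and the 4250 genes at -0.036.

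The checkpoint group held the member with the smallest p. Ttk encodes MPS1, the kinase that starts checkpoint signalling at unattached kinetochores. It read 8.88 and 8.79 on the WT arrays and 8.15, 8.23 and 8.17 on the Polg mutant arrays. All 3 mutant values were within 0.1 of each other and lay at least 0.56 below the lower WT value. The difference was -0.65 ± 0.04 (SE), or 63.5% of the WT level, with a limma adjusted p of 0.160. Ttk was also the 1 member to pass the adjusted threshold in any alternative fit, but only in the fits without a WT array. There a larger share of all genes passed than of members. The difference of Ttk was -0.61 without WT replicate 1 and -0.70 without WT replicate 2. Those fits assume that the lone WT array varies as the mutant arrays do. In the alternatives that kept both WT arrays the adjusted p of Ttk ran from 0.0557 to 0.491.

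Mad1l1 and Mad2l1 encode MAD1, the kinetochore platform, and MAD2, the protein that it converts into the inhibitor of the anaphase-promoting complex. Mad1l1 read 8.46 and 8.48 in WT, against 7.82, 7.91 and 7.99 in Polg mutant cells, a difference of -0.56 ± 0.06 (SE). Mad2l1 read 10.19 and 9.92 in WT, against 9.60, 9.74 and 9.62 in Polg mutant cells, a difference of -0.40. The groups did not overlap for either gene, and the gap between them was 0.47 for Mad1l1 and 0.18 for Mad2l1. Bub1b encodes BUBR1, which binds CDC20 in the mitotic checkpoint complex. Its values were 9.57 and 9.53 in WT, against 8.94, 8.99 and 9.19 in Polg mutant cells, which put it at -0.51 ± 0.09 (SE). The kinase gene Bub1 differed by -0.28 and Bub3, whose product carries BUB1 and BUBR1 to the kinetochore, by -0.28, both without overlap but with an unadjusted p above 0.05.

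The other genes of this group act with the anaphase-promoting complex or encode separase and its inhibitor. Espl1 encodes separase, the protease that cuts cohesin. It read 9.76 and 9.89 in WT, against 8.88, 9.19 and 9.48 in Polg mutant cells, a difference of -0.64 ± 0.20 (SE) with a wide spread among the mutant arrays. Cdc20, the activator of the anaphase-promoting complex, read 11.07 and 11.06 against 10.73, 10.95 and 11.01, a difference of -0.17 ± 0.10. Ube2c, which encodes the ubiquitin-conjugating enzyme of that complex, was the member with the smallest difference in this group. Its values were 11.84 and 11.74 in WT, against 11.84, 11.84 and 11.76 in Polg mutant cells, so the groups overlapped, and the difference was 0.03 ± 0.05 (SE). Pttg1, the separase inhibitor securin, had the widest WT spread of all members, at 7.43 and 8.10, and the mutant values of 7.82, 7.82 and 7.54 lay between them. Its difference of -0.04 ± 0.25 (SE) turned to 0.29 without WT replicate 2 and to 0.05 without Polg mutant replicate 3, and that of Ube2c turned to -0.02 without WT replicate 2. Over the whole group of 10 genes, 5 (50%) were lower at an unadjusted p under 0.05, though fewer were without WT replicate 1. For 8 (80%) the groups did not overlap, and the median difference was -0.34. Among genes in the members' signal range 19.2% were lower at that p and 29.7% did not overlap on the lower side.

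**Figure D2:**
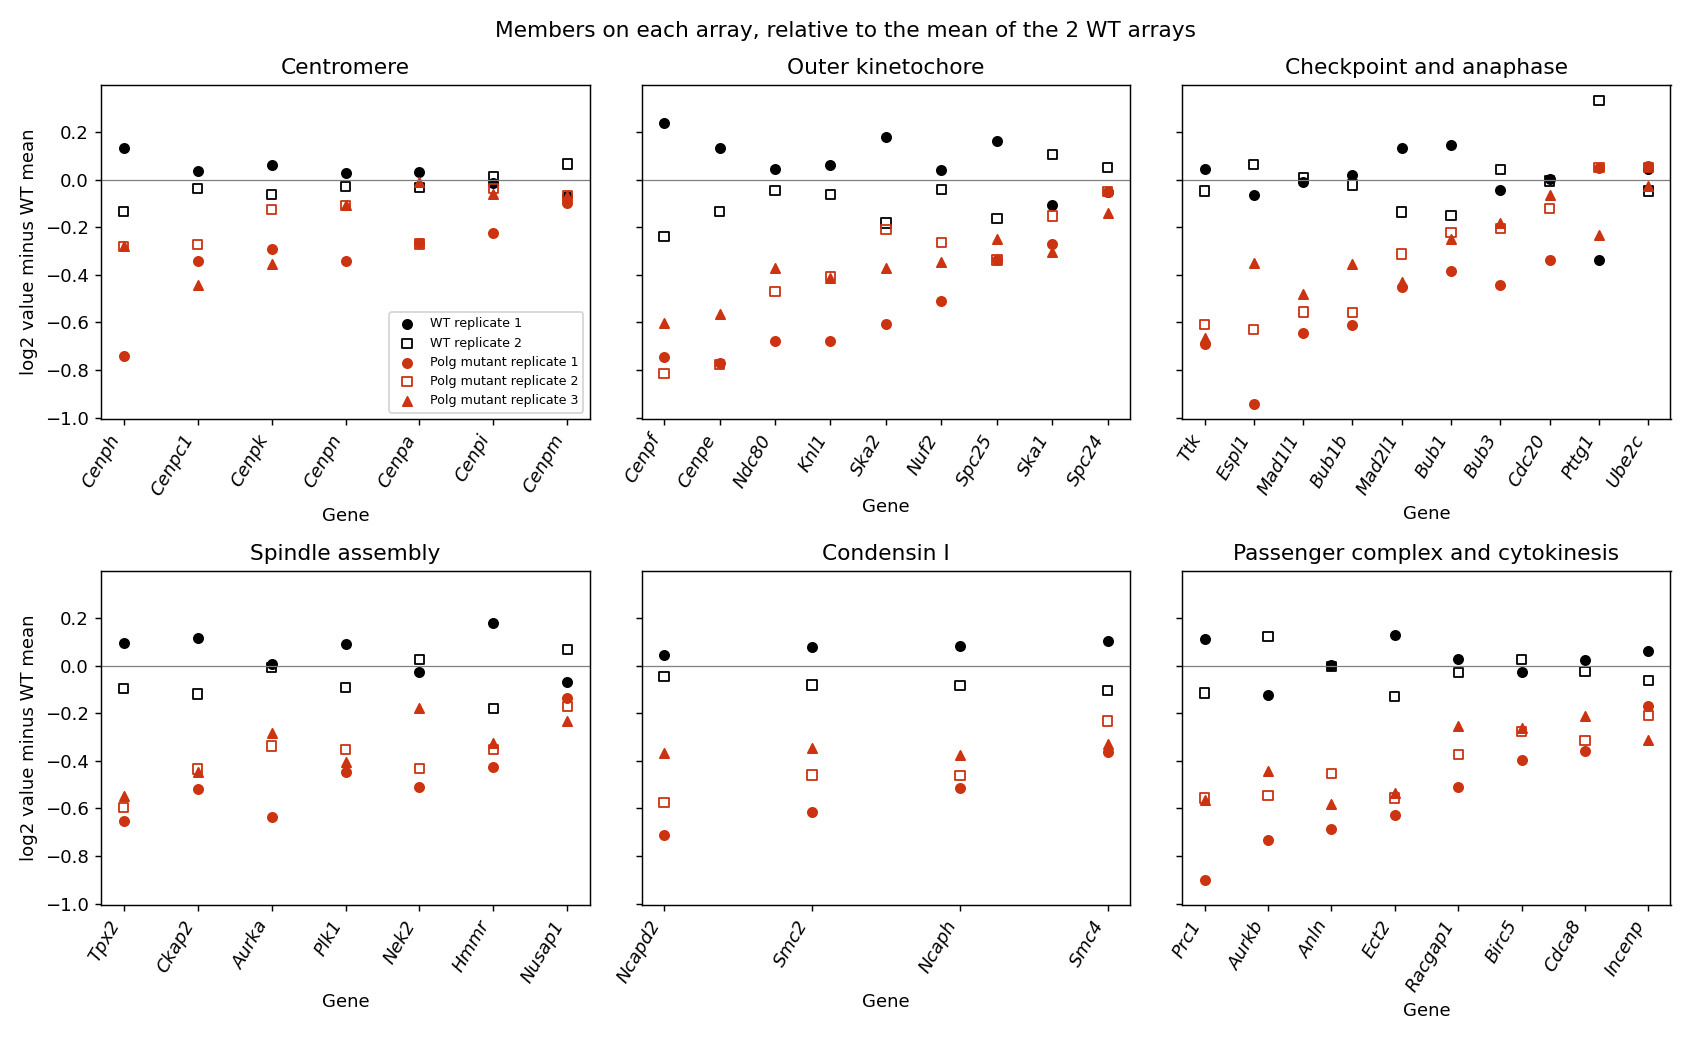
Each member's log2 value on each of the 5 arrays, minus the mean of its 2 WT arrays (y axis, log2 units), by gene (x axis) in 6 panels by role; black symbols are WT, red symbols Polg mutant, and the marker shape gives the replicate. Red symbols lie below both black symbols for 41 of 45 genes, and Cenpa, Spc24, Pttg1 and Ube2c are the 4 exceptions.

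Outer kinetochore genes included the members with the most negative differences. Cenpf, a large coiled-coil kinetochore protein gene, read 10.72 and 10.24 in WT, against 9.74, 9.67 and 9.88 in Polg mutant cells, a difference of -0.72 ± 0.18 (SE). Cenpe encodes the kinesin that carries chromosomes to the spindle equator. It read 10.76 and 10.50 in WT, against 9.86, 9.85 and 10.07 in Polg mutant cells, which gave -0.70 ± 0.12 and a limma adjusted p of 0.260. For both genes WT replicate 1 was the higher WT array, and the lowest WT value still exceeded the highest mutant value by 0.36 for Cenpf and 0.43 for Cenpe.

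Ndc80 and Nuf2 form the microtubule-binding arm of the NDC80 complex, and Spc24 and Spc25 its base. Ndc80 read 10.22 and 10.13 in WT, against 9.50, 9.71 and 9.81 in Polg mutant cells, a difference of -0.51 ± 0.11 (SE). Knl1, the scaffold gene on which BUB proteins assemble, read 11.28 and 11.16 against 10.54, 10.81 and 10.81, a difference of -0.50 ± 0.11. Nuf2 differed by -0.37 and Spc25 by -0.31, each without overlap. Spc24 read 7.72 and 7.82 in WT, against 7.72, 7.72 and 7.63 in Polg mutant cells, at -0.08 ± 0.05 (SE) with a value shared between the groups. Ska1 and Ska2 encode parts of the SKA complex, which helps kinetochores follow shrinking microtubules, and they differed by -0.24 and -0.39. The second probe set of Ska2 was dim, at 5.37 to 5.53, and differed by 0.07, so the 2 probe sets disagreed in sign. Of the 9 genes, 5 (55.6%) were lower at an unadjusted p under 0.05 and 8 (88.9%) did not overlap, with a median of -0.39. The shares in the members' signal range were 19.2% and 29.7%. The count of 5 was 3 without WT replicate 1 and 3 without WT replicate 2.

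Centromere genes had the smallest median of the 6 groups, -0.19 over 7 genes. This group covers Cenpa, the histone variant that marks the centromere, and genes of the inner kinetochore that read it. Cenpc1 encodes CENP-C, the link from CENP-A nucleosomes to the outer kinetochore. It read 8.93 and 8.86 in WT, against 8.56, 8.62 and 8.45 in Polg mutant cells, a difference of -0.35 ± 0.06 (SE) with a limma adjusted p of 0.268. Cenpk read 9.27 and 9.15 against 8.92, 9.08 and 8.86, a difference of -0.26 ± 0.09. Both genes belong to the constitutive centromere network, as does Cenph, which read 8.12 and 7.85 in WT, against 7.24, 7.70 and 7.70 in Polg mutant cells. The difference of Cenph, -0.43 ± 0.20 (SE), was the most negative here, and its SE was also the largest, because Polg mutant replicate 1 stood well below the other arrays.

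Cenpa itself read 10.54 and 10.48 in WT, against 10.24, 10.24 and 10.50 in Polg mutant cells. Polg mutant replicate 3 lay between the WT arrays, so the groups overlapped, and the difference was -0.18 ± 0.10 (SE). Cenpm was the least different of the group, at 8.48 and 8.62 against 8.45, 8.48 and 8.48, and its groups were separated by less than 0.001. Cenpn differed by -0.19 and the X-linked gene Cenpi by -0.11, neither with an unadjusted p under 0.05. In all, 2 of the 7 genes (28.6%), Cenpc1 and Cenpk, were lower at an unadjusted p under 0.05 and 6 (85.7%) did not overlap. The shares in the members' signal range were 19.2% and 29.7%. The count of 2 was 1 without WT replicate 1 and 1 without WT replicate 2.

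All 7 spindle assembly genes were lower at an unadjusted p under 0.05 and none overlapped, with a median of -0.40. Among genes in the members' signal range 19.2% were lower at that p and 29.7% did not overlap on the lower side. Tpx2 encodes the factor that activates Aurora A and nucleates microtubules around chromosomes. It read 10.94 and 10.75 in WT, against 10.19, 10.25 and 10.30 in Polg mutant cells, a difference of -0.60 ± 0.07 (SE) with a limma adjusted p of 0.218. The mutant arrays spanned only 0.11, less than the distance between the WT arrays. Plk1, the Polo kinase gene of mitotic entry and spindle formation, read 11.58 and 11.40 against 11.04, 11.14 and 11.09, a difference of -0.40 ± 0.07. Ckap2, whose product stabilises spindle microtubules, read 9.83 and 9.59 against 9.19, 9.27 and 9.26, a difference of -0.47 ± 0.09.

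Aurka, the Aurora A kinase gene, read 10.95 and 10.93 in WT, against 10.31, 10.60 and 10.66 in Polg mutant cells, at -0.42 ± 0.13 (SE). The centrosomal kinase gene Nek2 differed by -0.37 and Hmmr, a spindle pole protein gene, by -0.37. Nusap1, which bundles microtubules near chromosomes, had the smallest difference of the group. It read 11.78 and 11.92 in WT, against 11.72, 11.68 and 11.62 in Polg mutant cells, a difference of -0.18 ± 0.06 (SE) with a gap of 0.07 between the groups. The count of 7 was 4 without WT replicate 1, 4 without WT replicate 2, 4 without Polg mutant replicate 1 and 3 without Polg mutant replicate 2.

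Condensin I compacts chromosomes into their rod-like mitotic form. Its 4 measured genes were all lower at an unadjusted p under 0.05 and none overlapped, with a median of -0.46. Among genes in the members' signal range 19.2% were lower at that p and 29.7% did not overlap on the lower side. Ncaph, the kleisin subunit gene, read 10.47 and 10.30 in WT, against 9.87, 9.93 and 10.01 in Polg mutant cells, a difference of -0.45 ± 0.07 (SE) with a limma adjusted p of 0.249. Ncapd2 read 11.26 and 11.17 against 10.50, 10.64 and 10.84, a difference of -0.55 ± 0.12. The ATPase genes Smc2 and Smc4 are shared with condensin II. Smc2 read 11.04 and 10.88 in WT, against 10.34, 10.50 and 10.62 in Polg mutant cells, at -0.47 ± 0.11 (SE). Smc4 was the least different, at 11.61 and 11.40 against 11.15, 11.28 and 11.18, or -0.31 ± 0.08. The count of 4 was 3 without Polg mutant replicate 1 and 3 without Polg mutant replicate 3. Fewer of the 4 genes were lower at an unadjusted p under 0.05 without WT replicate 1, a fit with 1 WT array left. The median was then -0.38. That all 4 still did not overlap was fixed, because leaving out an array cannot create overlap.

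The passenger complex and cytokinesis genes had the most negative median of the 6 groups, -0.48 over 8 genes. All 8 were lower at an unadjusted p under 0.05, though fewer were without WT replicate 1, and none overlapped. Among genes in the members' signal range 19.2% were lower at that p and 29.7% did not overlap on the lower side. Anln encodes anillin, the scaffold of the contractile ring. It read 11.02 and 11.01 in WT, against 10.33, 10.56 and 10.43 in Polg mutant cells, a difference of -0.57 ± 0.08 (SE) with a limma adjusted p of 0.236. Ect2, the exchange factor that activates RhoA at the equator, read 11.68 and 11.42 against 10.92, 10.99 and 11.02, also -0.57, with an SE of 0.09. Racgap1 and Prc1 act beside it in the central spindle, where PRC1 crosslinks antiparallel microtubules. Prc1 differed by -0.67 ± 0.15 (SE), the most negative of the group, from 11.48 and 11.25 in WT to 10.47, 10.81 and 10.80 in the Polg mutant. Racgap1 differed by -0.38.

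The chromosomal passenger complex corrects faulty attachments at centromeres and then moves to the central spindle. Its 4 genes differed to unequal extents. Aurkb, the Aurora B kinase, read 11.26 and 11.51 in WT, against 10.65, 10.84 and 10.94 in Polg mutant cells, at -0.57 ± 0.13 (SE). Birc5, which encodes survivin, read 9.88 and 9.93 against 9.51, 9.63 and 9.65, a difference of -0.31 ± 0.05. Cdca8, the borealin gene, differed by -0.29, and the scaffold gene Incenp by -0.23 ± 0.07. Incenp read 10.21 and 10.08 in WT, against 9.97, 9.94 and 9.83 in Polg mutant cells, so that the groups stood 0.11 apart. Whether the kinase differed from its partners beyond their errors was not tested.

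**Figure D3:**
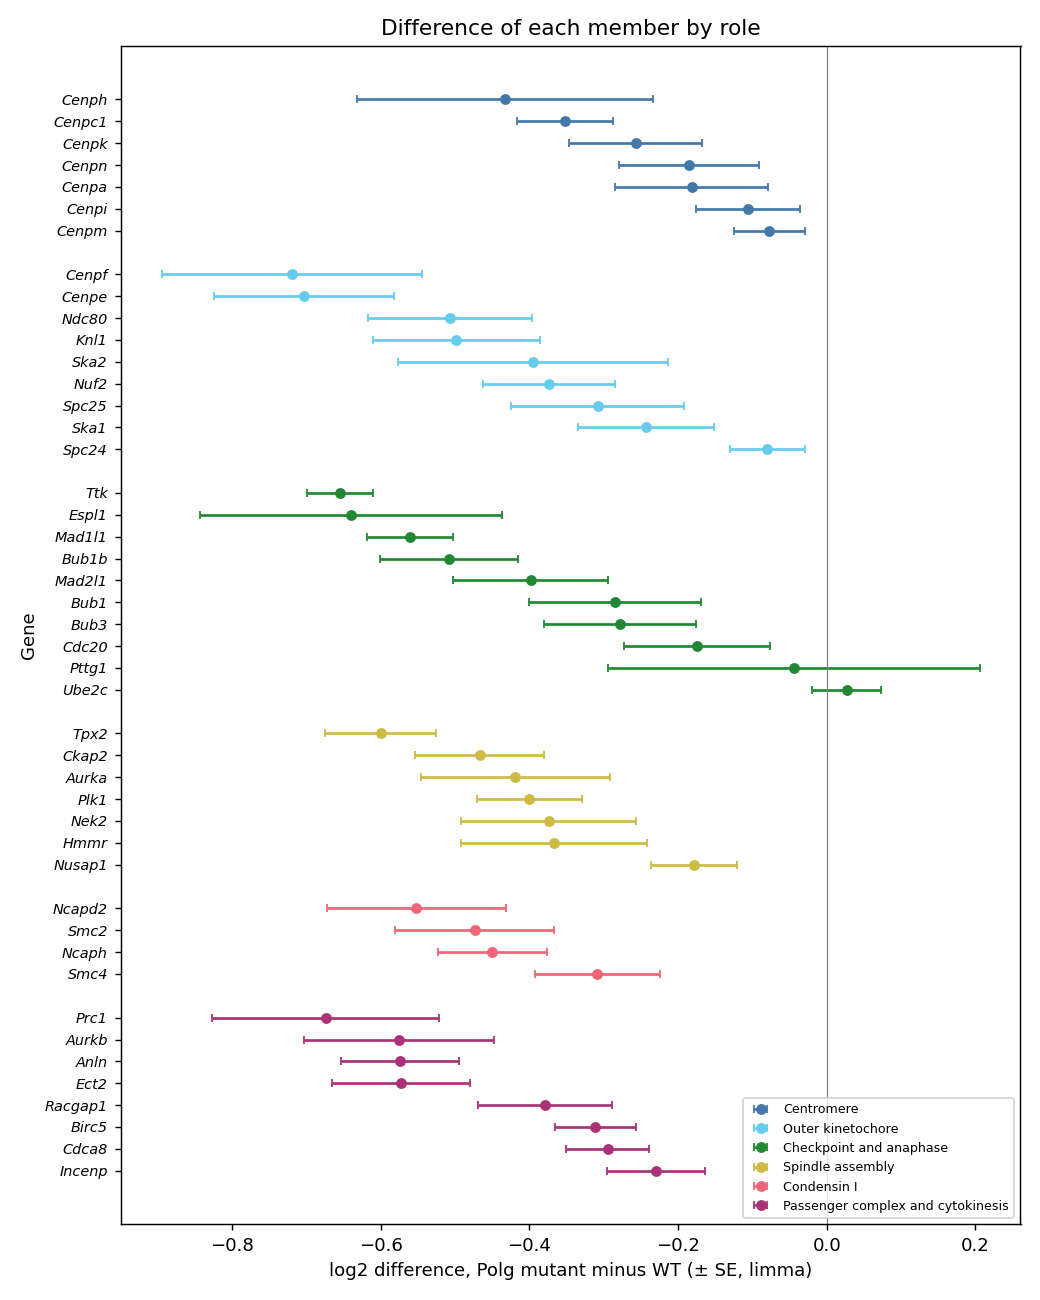
Log2 difference, Polg mutant minus WT (x axis), of each of the 45 members (y axis), coloured by role; points are limma estimates from 2 WT and 3 Polg mutant arrays and bars are ± 1 SE. Points run from -0.72 for Cenpf to 0.03 for Ube2c, and 13 members lie at -0.5 or below.

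Across the members, 13 were lower by at least 0.5, 17 by 0.3 to 0.5, and 9 differed by less than 0.2 in either direction. The arrays did not contribute equally. Averaged over the 45 members, the level was 10.10 and 10.02 on the WT arrays and 9.58, 9.71 and 9.73 on the Polg mutant arrays. Polg mutant replicate 1 held the lowest mutant value for 34 members, replicate 2 for 3 and replicate 3 for 8. WT replicate 1 was the higher WT array for 33 members and WT replicate 2 for 12. Averaged within each of the 6 role groups, both WT arrays lay above all 3 mutant arrays.

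Many promoters of mitotic genes carry a cell cycle genes homology region (CHR), the element through which the DREAM complex represses and the MuvB, B-MYB and FOXM1 proteins activate transcription, and CCAAT boxes, which bind NF-Y. RefSeq promoters (GRCm38.p6, 300 bases: 250 before to 50 after the start site) were matched by symbol to 40 of the 46 members, 46 promoters in all. Spc24, Ska1, Tpx2, Smc4, Aurkb and Incenp had no match. The CHR was searched as TTTGAA and the box as CCAAT, on both strands. TTTGAA was in 58.7% of the members' promoters and in 17.9% of all 32851 promoters of that length, and CCAAT in 76.1% and 37.4%. Both were present in 52.2% of the members' promoters and in 6.95% of all. A TTTGAA that began within 50 bases of the start site was found in 24 of the 46, or 52.2%, against 4.94% of all promoters. These are matches of letters, not bound sites.

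The 200 bases before the start site are shown for 5 members that carry both motifs there and span the range of differences, with motif letters in capitals. ATTGG and TTCAAA are CCAAT and TTTGAA read on the other strand. Prc1 (chr7:80294276-80294475, plus strand, the downstream of its 2 starts), Espl1 (chr15:102296093-102296292, plus) and Ncapd2 (chr6:125191587-125191786, minus) differed by -0.67, -0.64 and -0.55. Cdc20 (chr4:118437344-118437543, minus) and Ube2c (chr2:164769729-164769928, plus) differed by -0.17 and 0.03.
Prc1: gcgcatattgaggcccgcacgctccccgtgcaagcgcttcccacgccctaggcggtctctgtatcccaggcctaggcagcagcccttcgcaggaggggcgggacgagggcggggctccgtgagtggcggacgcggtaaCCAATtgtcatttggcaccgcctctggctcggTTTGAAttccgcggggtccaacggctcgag
Espl1: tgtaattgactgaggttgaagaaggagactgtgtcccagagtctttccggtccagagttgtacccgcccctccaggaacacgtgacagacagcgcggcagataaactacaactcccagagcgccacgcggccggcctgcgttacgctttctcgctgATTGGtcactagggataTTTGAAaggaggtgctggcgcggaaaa
Ncapd2: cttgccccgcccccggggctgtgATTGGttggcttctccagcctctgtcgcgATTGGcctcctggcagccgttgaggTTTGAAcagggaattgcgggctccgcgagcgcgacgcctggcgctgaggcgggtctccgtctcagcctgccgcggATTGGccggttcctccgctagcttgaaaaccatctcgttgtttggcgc
Cdc20: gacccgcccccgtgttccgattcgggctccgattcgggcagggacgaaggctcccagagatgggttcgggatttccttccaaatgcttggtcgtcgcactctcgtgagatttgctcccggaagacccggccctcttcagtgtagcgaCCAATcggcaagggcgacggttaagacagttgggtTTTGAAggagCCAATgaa
Ube2c: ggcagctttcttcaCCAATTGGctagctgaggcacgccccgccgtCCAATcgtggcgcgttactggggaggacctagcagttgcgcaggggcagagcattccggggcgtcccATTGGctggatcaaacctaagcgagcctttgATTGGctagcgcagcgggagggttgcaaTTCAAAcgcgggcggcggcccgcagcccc

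In the Prc1 window CCAAT begins at -62 and TTTGAA at -30, counted from the start site, and in the Espl1 window they begin at -44 and -27. Ncapd2 holds 3 CCAAT boxes and its TTTGAA lies farther away, at -123. The TTTGAA of Cdc20 begins at -18 between boxes at -53 and -8. Ube2c has its TTTGAA at -29 behind 5 CCAAT matches, of which those at -186 and -183 overlap on opposite strands. Ube2c, without a lower level, carried the same letters as Prc1, Espl1 and Ncapd2. By motif, the median difference was -0.47 over the 23 measured members with TTTGAA and -0.36 over the 16 without, and -0.38 with CCAAT and -0.42 without. Both kinds of member covered wide ranges, from -0.72 to 0.03 with TTTGAA and from -0.70 to -0.04 without.

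Genes that act with the members were taken from 8 further lists of 135 symbols, of which 126 were measured. Their median difference was -0.26. At an unadjusted p under 0.05, 50 (39.7%) were lower and 1 higher. The groups did not overlap for 68 (54.0%) on the lower and 5 on the higher side. Of the 4250 genes in the members' signal range, 817 (19.2%) were lower at that p and 471 higher. Among those genes 1262 (29.7%) did not overlap on the lower side and 764 on the higher. The count of 50 was 17 without WT replicate 1 and 31 without Polg mutant replicate 2, and the median was -0.15 without WT replicate 1. No difference between lists was tested.

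Further kinetochore genes had a median of -0.28 over 19. Of these, 10 (52.6%) did not overlap on the lower side, against 29.7% in the members' signal range. The kinetochore genes of smallest unadjusted p were Cenpp at -0.28, Kntc1, which recruits dynein to kinetochores, at -0.44 and Cenpt at -0.35. Other spindle genes had a median of -0.31 over 29, with 19 (65.5%) that did not overlap on the lower side. Aspm, a spindle pole gene, read 10.21 and 10.15 in WT, against 9.41, 9.59 and 9.57 in Polg mutant cells, at -0.66 ± 0.07 (SE). The augmin gene Haus4 differed by -0.42 and Fam83d by -0.48. Psrc1, a microtubule-binding protein gene, went the other way on every array, from 7.82 and 7.62 in WT to 8.54, 8.06 and 8.09, a difference of 0.51 ± 0.19 (SE). Of the 3 genes particular to condensin II, Ncapd3 differed by -0.47, Ncapg2 by -0.63 and Ncaph2 by -0.26, the last with overlap.

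Cohesin holds sister chromatids together from S phase until separase cuts it. Its 14 genes had a median of -0.30, which was -0.14 without WT replicate 1. Of the 14, 7 (50%) did not overlap on the lower side, against 29.7% in the members' signal range. Stag1 differed by -0.73 ± 0.09 (SE), Pds5b by -0.49 and the acetyltransferase gene Esco2 by -0.35, while the loader gene Mau2 was higher on every mutant array at 0.53. The anaphase-promoting complex had a median of -0.06 over 17 genes, or -0.03 without Polg mutant replicate 2. In it 7 genes (41.2%) did not overlap on the lower side, against 29.7% in the members' signal range. At an unadjusted p under 0.05, 17.6% were lower, against 19.2%. Anapc2, its cullin subunit, differed by -0.32, and its inhibitor Fbxo5, which encodes EMI1, and activator Fzr1, which encodes CDH1, by -0.63 and -0.22. Further checkpoint regulators had a median of -0.12 over 12 genes, which was -0.02 without WT replicate 1 but -0.19 without WT replicate 2. Of these genes 5 (41.7%) did not overlap on the lower side, against 29.7% in the members' signal range. Sgo1, the shugoshin that guards centromeric cohesin, differed by -0.42, the Greatwall kinase gene Mastl by -0.71 and Wee1 by -0.18. On the other side, Mad2l1bp, whose product p31comet helps to silence the checkpoint, was higher by 0.31 ± 0.11 (SE) and the phosphatase scaffold gene Ppp2r1a by 0.15, each on every mutant array.

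Other cytokinesis genes had a median of -0.07 over 13, and 5 (38.5%) did not overlap, against 29.7% in the members' signal range. That median was -0.21 without Polg mutant replicate 1, -0.11 without replicate 2 and -0.03 without replicate 3, and it was -0.03 without WT replicate 1 and -0.13 without WT replicate 2. The formin gene Diaph3 differed by -0.38, Depdc1a by -0.49 and Depdc1b by -0.86. Regulators that bind the CHR and CCAAT motifs, with E2F and RB family genes, had a median of -0.33 over 19. Of these, 13 (68.4%) did not overlap on the lower side, against 29.7% in the members' signal range. The NF-Y subunit genes Nfyc and Nfyb differed by -0.37 and -0.65, and E2f4, the E2F of the DREAM complex, by -0.47. Lin37, a DREAM subunit, was higher on every mutant array at 0.20.

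General proliferation genes were lower as well. Mki67, the Ki-67 gene, read 13.26 and 13.10 in WT, against 12.87, 12.92 and 12.95 in Polg mutant cells, a difference of -0.27 ± 0.06 (SE), and Top2a and Cdk1 differed by -0.33 and -0.39. Cdkn1a, the gene of the CDK inhibitor p21, stood on the other side, from 7.33 and 6.64 in WT to 10.50, 9.69 and 9.72 in the Polg mutant. Polg itself read 6.97 on all 5 arrays, an exact tie in the deposited values, so it cannot show whether the transcript differed. The allele also alters the protein rather than removing the transcript, so that level does not check the labels. In bulk samples fewer dividing cells and less RNA of these genes per dividing cell cannot be told apart.

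Other cell types and erythroid genes were read beside the members. Erythroid markers, 11 of 13 measured, averaged 12.22 and 12.04 on the WT arrays and 11.78, 11.88 and 11.84 on the Polg mutant arrays, so genes of erythroid identity were bright throughout. Their median difference was -0.31, or -0.17 without WT replicate 1, and 10 of 11 did not overlap on the lower side, against 9.73% of all genes. Erythroid progenitor markers, 7 of 8 measured, averaged 7.16 and 6.86 in WT, against 7.50, 7.21 and 7.20 in Polg mutant cells. Of the 7, 6 had a positive difference and 3 did not overlap on the higher side, against 8.36% of all genes. Their median difference of 0.17 was 0.52 without WT replicate 1 and 0.03 without WT replicate 2. Neutrophil markers, 15 of 15 measured, averaged 8.02 and 7.10 in WT, against 8.45, 8.97 and 7.24 in Polg mutant cells. Granulocyte transcripts were thus present after CD45 depletion, at unequal levels on arrays of 1 genotype. Macrophage and T cell markers averaged 5.25 to 5.47 and 4.52 to 4.76 over the 5 arrays. B cell markers, 8 of 10 measured, averaged 5.75 and 5.28 in WT, against 5.37, 5.06 and 4.88 in Polg mutant cells. All 8 had a negative difference, with a median of -0.28 that was -0.15 without WT replicate 1 and -0.43 without WT replicate 2. Of the 8, 1 (12.5%) did not overlap on the lower side, against 9.73% of all genes. That count was 5 without Polg mutant replicate 1, where the share of all genes was 11.7%. Leaving out an array cannot lower the count. Megakaryocyte markers, 6 of 8 measured, averaged 6.49 and 7.30 in WT, against 6.41, 6.61 and 6.30 in Polg mutant cells. Their median difference of -0.21 was -0.53 without WT replicate 1 and 0.11 without WT replicate 2. The platelet glycoprotein gene Gp9, singled out after its values were seen, read 10.42 and 10.41 in WT, against 8.84, 9.23 and 9.11 in Polg mutant cells, a difference of -1.36 ± 0.14 (SE) that did not pass the adjusted threshold. The part of erythroid maturity or of other cell types in the members' differences was not tested.

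To set the members beside the neutrophil markers, each Polg mutant array was set against each WT array, a description added after the values had been seen. Polg mutant replicate 3 and WT replicate 2 were close in neutrophil markers, with a difference of 0.14. The members' median difference between those arrays was -0.29, and 43 of 45 were lower. Polg mutant replicate 3 had fewer neutrophil transcripts than WT replicate 1, by a difference of -0.79, and there the members' median was -0.41 with 44 lower. The pair with the largest neutrophil difference, 1.87 for Polg mutant replicate 2 against WT replicate 2, had a median of -0.29. Over the 6 pairs the members' median ran from -0.55 to -0.29 and 42 to 44 members were lower, while between 33.5% and 43.7% of all genes were, many of which hold ties. Among the 4250 genes in the members' signal range the share that was lower ran from 45.8% to 61.0%. Because 41 members did not overlap between the groups, at least 41 had to be lower in every pair. Each median therefore had to be negative at any neutrophil difference, and the part of neutrophil RNA was not tested.

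**Figure D4:**
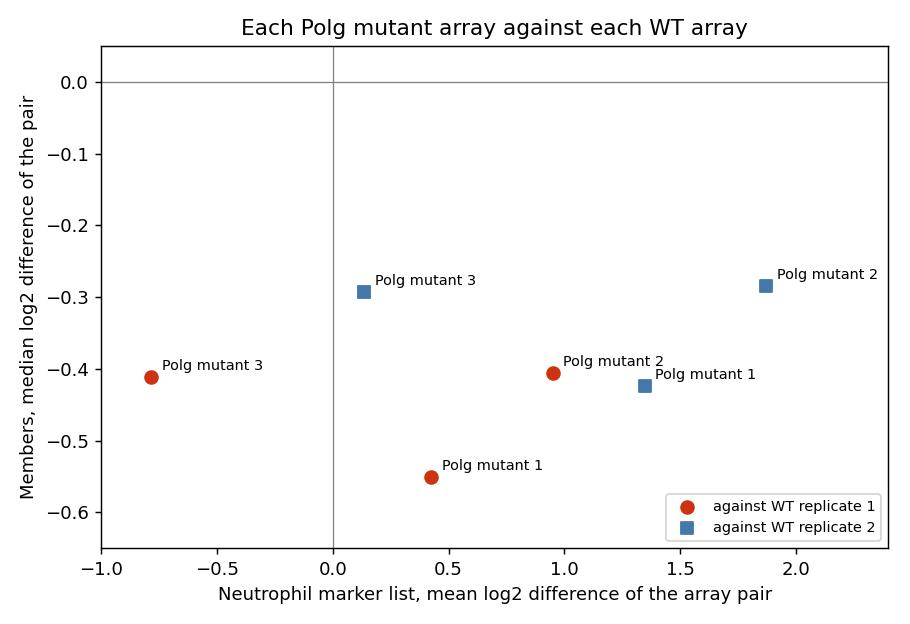
Median log2 difference of the 45 members (y axis) against the mean log2 difference of 15 neutrophil markers (x axis) for each Polg mutant array minus each WT array; red circles are against WT replicate 1 and blue squares against WT replicate 2. The 6 pairs share arrays, and all 6 medians lie between -0.55 and -0.29 while the neutrophil difference runs from -0.79 to 1.87. Members that do not overlap between the groups are lower in every pair, so the sign of the medians was fixed.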

How the data were processed

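The authors deposited log2 expression values for 41345 probe sets on 5 arrays, made with RMA and Partek 6.5, named without roles in the submitters' processing notes. They were used without further scaling, and gene names came from the annotation table of the platform. For each gene the brightest probe set annotated with 1 symbol was kept. WT and Polg mutant arrays were compared by limma 3.58.1 (R 4.3.3) with genotype as the only term, two-sided, and Benjamini-Hochberg adjustment over all 22180 genes. The fit was checked on simulated data. Exact ties between arrays affected 67.9% of genes and 5 members, and lower limma's prior variance. An exact permutation test of 1 gene cannot go below p = 0.1. The number of arrays limits the precision, and signal over background was not known. The members and lists were chosen with earlier results of these data known. Within each role the text gives array values for the 3 members of smallest p and the 1 of smallest difference, and it names the 3 genes of smallest p per further list with any higher on every mutant array; array values of other members were added after they were seen. Alternatives covered moderation, filters, scaling, probe sets, single arrays left out and a replicate block.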

Additional observations from a re-analysis of the deposited data

How the results depend on the processing

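Alternatives of moderation or gene filter leave a member's difference as it was. For members without overlap, leaving out an array cannot change the sign. The untied fit needs 5 distinct values, which 40 of the 45 members had. Of the 45 members, 43 had a negative difference in every alternative in which they were tested. Exceptions were Ube2c, at 0.074 without WT replicate 1 but -0.020 without the other WT array, and Pttg1, at 0.29 without WT replicate 2, -0.38 without WT replicate 1, 0.050 without Polg mutant replicate 3 and 0.050 with the replicate block. Leaving out 1 Polg mutant array gave 23 to 26 members lower at an unadjusted p under 0.05, against 4.08% to 4.31% of all genes. It gave 0 members past the adjusted threshold. Without either WT array fewer members were lower at that p. Leaving out any 1 array gave a median of -0.45 to -0.31. With the replicate number as a block 15 members were lower at an unadjusted p under 0.05, against 4.77% of all genes. Same-numbered arrays had deviations that correlated at 0.19 and -0.20. With 2 WT arrays the deviations of one mirror those of the other, so these values cannot show whether same-numbered samples were paired. Centred on array medians, 1 centromere gene was lower at an unadjusted p under 0.05 in place of 2. After renewed quantile normalization 4 centromere genes did not overlap, in place of 6. Over all genes, where limma called 0, counts past the adjusted threshold were 5 without moderation, 11 above a log2 of 6, 114 among untied genes, 9 after renewed quantile normalization, 1781 with WT replicate 1 left out and 924 with WT replicate 2 left out. The causes were not tested.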
